A study of Trichoderma reesei with 36 samples.

Results

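The 100 genes described here are those of *Trichoderma reesei* whose transcripts stood higher on a feed of pure lactose than on any glucose-lactose mixture by the widest margin, out of 9129 genes counted. They hold the main cellulases, enzymes that cut xylan, arabinan, mannan and pectin, sugar permeases and many secreted or unannotated proteins. The strain was Rut-C30, a cellulase hyperproducer in which *cre1*, the gene of the carbon catabolite repressor CRE1, is truncated, so that every group compared shares a partial release from glucose repression. Cultures grew first in batch mode on glucose and were then fed with pure lactose (L100), 75% glucose and 25% lactose (G75-L25), 90% glucose and 10% lactose (G90-L10) or pure glucose (G100), and RNA was taken 48 h and 24 h after the feed began. Each time is covered by 6 libraries of L100, 4 of G75-L25, 2 of G90-L10 and 6 of G100, 36 libraries in 8 groups. All of them come from 1 strain, and each replicate began as 1 pre-culture whose broth was divided over the feed flasks, although the labels do not say which flasks share one. The p-values below therefore measure the spread between these flasks. Library titles start with 2014 for both pure feeds and with 2015 for both mixtures, and feed type and title year cannot be told apart.

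*T. reesei* is a soil fungus that secretes cellulases and hemicellulases, enzymes that break plant cell walls into sugars, and it is grown in industry for these enzymes. Lactose, a disaccharide of glucose and galactose, is a soluble sugar that switches these genes on, whereas glucose does not. The zinc cluster activator XYR1 is required for this induction, and CRE1 represses many of the same genes when glucose is plentiful.

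The genes were chosen from group means of normalised counts. Values are CPM, counts scaled to libraries of a common size, after TMM scaling, which adjusts library sizes so that most genes stay level between libraries, with the library titled 2014_274 left out. A gene qualified with a mean of at least 5 CPM on L100 at both times and with L100 at least 0.75 above G100 on a log2 scale at both times, using log2(CPM + 0.5). This was met by 668 genes. Each was scored by the log2 step by which L100 exceeded the higher of both mixtures and G100, taking the smaller step of both times, and the 100 highest scores were kept. Scores ran between 0.76 and 2.24 with a median of 0.94, against a median of 0.30 among the 568 qualifying genes that ranked lower. The smaller step was that at 24 h for 79 of the genes and that at 48 h for 21. The last genes inside were ID 103048 of unknown function (0.77) and ID 122134 (0.76), and the first outside were ID 104295 of unknown function (0.75) and GAR1 (ID 22004), a D-galacturonic acid reductase (0.74), so the limit cuts through a continuous ranking. Feeds chose the genes, so the values by feed are a description and carry no test.

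CPM is relative to the RNA of a whole culture, in which fewer cells and less RNA per cell cannot be told apart. After TMM scaling it is not a plain share of the counts, and shares are given separately below. The 36 libraries held between 9955798 and 49808747 counts with a median of 23493202, and no pair of libraries of a group agreed within sampling noise. The library titled 2014_274, labelled L100 at 48 h, stood apart from its group. Over the 100 genes its median was -0.57 on the log2 scale relative to the G100 mean at 48 h, while the other 5 libraries of its group lay between 2.74 and 3.13. For 99 of the genes it was below each of those 5 libraries. It lay within the range of the G100 libraries at 48 h for 34 of the genes, against 43.3% of all tested genes, below every one of them for 50 and above every one for 16. CBH1, the most abundant secreted cellulase, had 4200 CPM in it, against 159000 to 206000 CPM in the other L100 libraries at 48 h. ID 82309, which is not on the study's gene list, was the exception with 46.4 CPM, above each of the other libraries. All values below leave this library out, and the tests that move when it is put back are given with both values.

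**Figure D1:**
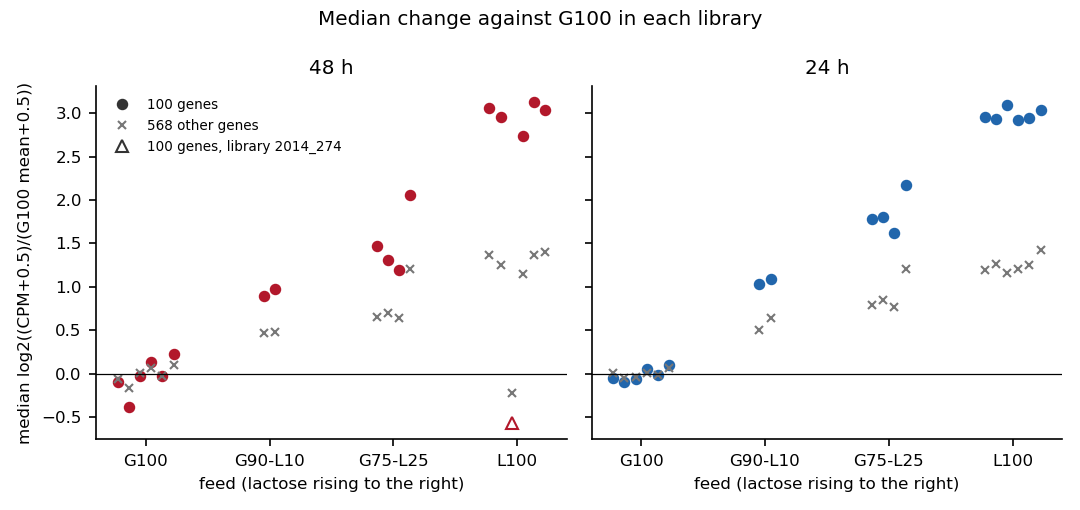
Median over the 100 genes of the log2 difference of each library from the G100 mean of its time, on log2(CPM + 0.5), with 1 filled point (an open triangle for 2014_274) per library, feeds side by side and a panel for each time, and crosses for the 568 other qualifying genes. The L100 libraries lie between 2.74 and 3.13, the library titled 2014_274 at -0.57, and 1 G75-L25 library at each time lies above the other 3.

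Most of these genes were not silent on the mixtures. The best mixture was above G100 by more than 1 on the log2 scale at both times for 71 of the 100 and by more than 2 for 38. It stayed under 0.5 at both times for only 7 (ID 72780, 68588, 58381, 82309, 23062, 65410 and 122134). The 100 are therefore better described as the genes with the widest step between mixtures and pure lactose than as genes raised by pure lactose alone. At 48 h their median log2 difference from G100 was 0.94 for G90-L10, 1.55 for G75-L25 and 2.99 for L100. At 24 h the corresponding medians were 1.08, 1.92 and 2.98. For 83 genes the mean rose at each step of lactose in the feed at both times, and 94 stood higher on G75-L25 than on G90-L10 at both times. The level on G75-L25 reached a median of 40.6% of that on L100 at 48 h, with a range of 15.3% to 58.5%, and 50.1% at 24 h, with a range of 21.1% to 58.7%. On G90-L10 it reached a median of 22.8% at 48 h and 27% at 24 h.

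**Figure D2:**
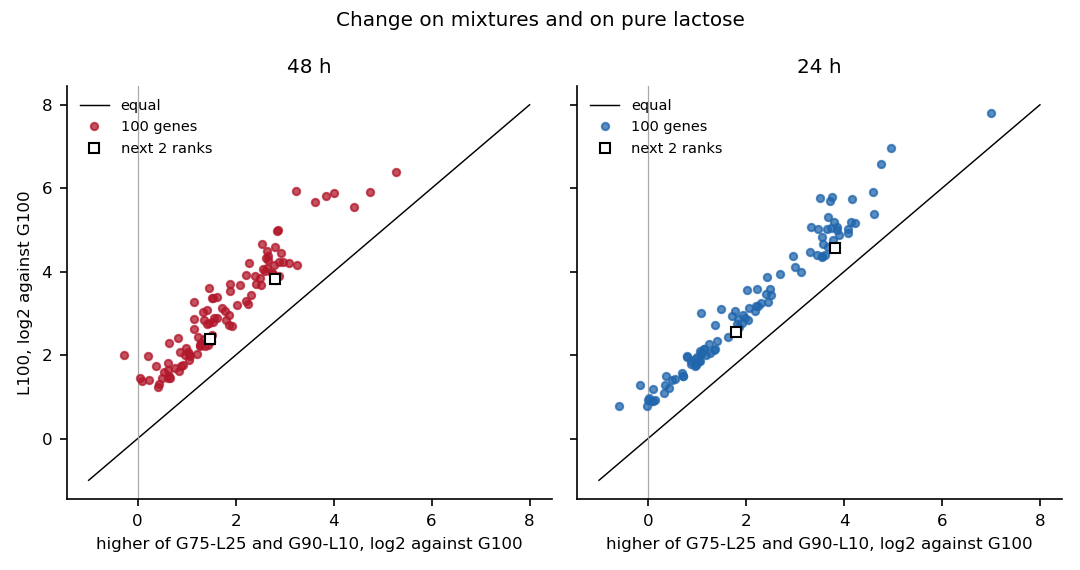
Log2 difference from G100 on the better mixture (horizontal axis) and on L100 (vertical axis) for each gene at 48 h and at 24 h, with the next 2 genes in rank as open squares and a line of equal values. The 100 lie above the diagonal by construction, and they spread along the mixture axis, with 38 of them beyond 2 at both times.

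The mixtures were not uniform between flasks. On G75-L25 at 48 h, 3 libraries had medians over the genes of 1.19 to 1.47 and the library titled 2015-431 had 2.06. At 24 h, 3 had 1.62 to 1.80 and the library titled 2015-430 had 2.17. The titles 2015-430 and 2015-431 are consecutive, and the labels do not say whether both come from the same flask. They may therefore not be separate deviations. Without these 2 libraries and 2014_274, the median step by which L100 exceeded the better mixture was 1.38 at 48 h and 1.09 at 24 h. With these 2 kept and 2014_274 still left out, it was 1.27 and 0.96. TMM scaling assumes that most genes stay level. Scaled by library size only, the median of all tested genes on L100 against G100 moved to -0.69 at 48 h and -0.58 at 24 h, and that of the 100 genes was 2.35 and 2.48. All 100 remained above G100 and above G75-L25 at both times under either scaling.

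Together the genes took a large share of all counts on lactose, with CBH1 alone at a median of 12.8% of the counts of an L100 library at 48 h, against 1.14% on G100. Their share of all counts at 48 h was 1.94% to 4.81% per library of G100, 8.48% to 8.54% of G90-L10, 14.6% to 20.9% of G75-L25 and 32% to 36% of L100. At 24 h the G100 libraries gave 1.24% to 2.12%, G90-L10 6.27% to 7.61%, G75-L25 14.4% to 18.1% and L100 24.1% to 29.1%. No library of any feed reached the range of the next feed with more lactose. The library titled 2014_274 gave 1.63%. The spread between flasks of a group was wider for these genes than for all genes, with a median SD on log2(CPM + 0.5) of 0.23 on L100 at 48 h (0.18 over all tested genes) and of 0.34 on G100 (0.14). Levels among the genes differed widely, with 19 of them over 1000 CPM on L100 at 48 h and 6 under 10 CPM, not corrected for gene length.

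Separation between libraries was wide. The lowest L100 library stood above every G100 and mixture library for 83 of the genes at 48 h, where 6.49% of the 8338 tested genes did so, for 77 at 24 h, where 4.93% did, and for 72 at both times, where 3.03% did. With the study's thresholds, an adjusted p under 0.001 and a log2 fold change over 2, applied here to edgeR's quasi-likelihood test, 81 of the genes were higher on L100 than on G100 at 48 h (3.23% of all tested genes) and 75 at 24 h (2.78%). On G75-L25 against G100 the numbers were 43 at 48 h (1.38% of all) and 52 at 24 h (1.98%), and on G90-L10 against G100 they were 12 (0.348%) and 36 (0.852%). Set directly against G75-L25, L100 was higher in 8 genes at 48 h (0.228% of all) and 4 at 24 h (0.084%), and set against G90-L10 in 56 (1.24%) and 41 (0.66%). These counts follow from the way the genes were chosen, and nothing is read from them beyond the size of the differences.

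Enzymes of hemicellulose side chains and pectin are described first. ABF1 (ID 123283), a GH54 alpha-L-arabinofuranosidase that removes arabinose from xylan and arabinan, ranked first. At 48 h it had 751, 1320, 764, 747 and 955 CPM on L100, against 11.6, 13.4 and 19.8 CPM (lowest, median and highest) on G100. At 24 h it had 663, 779 and 1040 CPM on L100, against 12.3, 15.4 and 16.6 CPM on G100. On the mixtures it had 43.2 and 63.4 CPM on G90-L10 and 118, 131, 135 and 171 CPM on G75-L25 at 48 h. No feed overlapped another at 48 h, and the L100 mean was 63 times that of G100 and 6.53 times that of G75-L25.

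ABF2 (ID 76210), a GH62 arabinofuranosidase acting on the same side chains, averaged 3870 ± 521 CPM on L100 at 48 h (SD, n = 5), against 65.1 ± 25.9 CPM on G100 (SD, n = 6), a 59.4-fold difference. The GH28 protein ID 103049, of the family of pectin-cutting polygalacturonases, averaged 151 ± 69.2 CPM on L100 and 4.32 ± 2.03 CPM on G100 at 48 h. PGX1 (ID 112140), also GH28, averaged 358 ± 47.7 CPM on L100 and 17.4 ± 6.65 CPM on G100 at 48 h. Both GH28 genes were at least 2 times higher on L100 than on G75-L25 at both times. A GH105 protein (ID 57179), of a family that cleaves pectin fragments, was 9.43-fold higher on L100 than on G100 at 48 h and 18-fold higher at 24 h.

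Of the xylan-cutting enzymes XYN1, XYN5, XYN6 and XYN3 ranked 14, 39, 86 and 92. XYN1 (ID 74223), a GH11 endoxylanase, had 5410, 13700, 8810, 6700 and 7510 CPM on L100 at 48 h, against 307, 592 and 904 CPM (lowest, median and highest) on G100. Its mixtures at 48 h lay at 2200 and 3730 CPM on G90-L10 and at 2690, 3120, 3490 and 3960 CPM on G75-L25. The groups of both mixtures overlapped each other, and both lay between G100 and L100 without touching either. XYN5 (ID 112392), another GH11 protein, averaged 1760 ± 414 CPM on L100 (SD, n = 5), against 118 ± 34.2 CPM on G100 (SD, n = 6) at 48 h. XYN3 (ID 120229), a GH10 endoxylanase, had few counts, with 27.1 ± 1.09 CPM on L100 and 2.07 ± 1.26 CPM on G100 at 48 h. XYN6 (ID 69276), of the GH30 family, averaged 1190 ± 171 CPM on L100 and 166 ± 80.1 CPM on G100 at 48 h.

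A second GH30 protein (ID 110894) was 17.4-fold higher on L100 than on G100 at 48 h and 21.5-fold higher at 24 h. The esterases AXE1 (ID 73632), which takes acetyl groups off xylan, and AES1 (ID 121418), an acetyl esterase, were 6.97-fold and 15.8-fold higher on L100 than on G100 at 48 h. MAN1 (ID 56996), the beta-mannanase, averaged 966 ± 75.7 CPM on L100 (SD, n = 5), against 51.8 ± 25.7 CPM on G100 (SD, n = 6) at 48 h, an 18.7-fold difference. Its step over G75-L25 was 3.83-fold at 48 h and 1.94-fold at 24 h. A GH31 protein (ID 69944), of the family of alpha-glucosidases and alpha-xylosidases, was 16.3-fold and 33.2-fold higher on L100 than on G100 at 48 h and 24 h.

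The main cellulases had the highest counts of these genes, which are not corrected for gene length, with scores of 0.83 for CBH1, 0.91 for EGL1 and 1.05 for CBH2. CBH1 (ID 123989), the cellobiohydrolase that works from the reducing ends of cellulose, had 188000, 168000, 159000, 159000 and 206000 CPM on L100 at 48 h, against 4550, 9540 and 14800 CPM (lowest, median and highest) on G100. On the mixtures at 48 h it had 27200 and 25500 CPM on G90-L10 and 52200, 61900, 58800 and 106000 CPM on G75-L25. None of the 4 feeds overlapped, and the highest G75-L25 value belonged to the library titled 2015-431. The L100 mean was 18.6 times that of G100 at 48 h and 30.2 times at 24 h.

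CBH2 (ID 72567), which works from the opposite chain ends, averaged 96600 ± 9710 CPM on L100 (SD, n = 5), against 4650 ± 1990 CPM on G100 (SD, n = 6) at 48 h. The endoglucanases, which cut inside cellulose chains, were alike in fold, with EGL1 (ID 122081) 13.9-fold and EGL2 (ID 120312) 15-fold higher on L100 than on G100 at 48 h. A protein of the endoglucanase family GH45 (ID 49976) averaged 5830 ± 905 CPM on L100 and 328 ± 128 CPM on G100 at 48 h. Helper proteins had folds of the same order. Swollenin SWO1 (ID 123992), which loosens cellulose fibres, and CIP1 (ID 73638), a secreted protein with a cellulose-binding module, were 18.7-fold and 21.8-fold higher on L100 than on G100 at 48 h. CEL74A (ID 49081), a xyloglucanase, averaged 9880 ± 1160 CPM on L100 and 305 ± 76.2 CPM on G100 at 24 h. CEL3D (ID 46816), of the GH3 family of beta-glucosidases, averaged 98.2 ± 7.34 CPM on L100 and 10.4 ± 1.41 CPM on G100 at 24 h.

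Of 81 carbohydrate-active proteins taken by keyword from the study's gene list, 48 met the conditions and 24 were among the 100. The 81 and the 48 also hold the regulators XYR1 and ACE3, and the 24 include SWO1 and CIP1. That list was chosen on these same samples, and 82 of its 649 genes counted here were among the 100. Over all genes, 668 met the conditions and 100 were kept. These shares are the base for this and the later class counts. Of 33 main cellulases and hemicellulases, 29 met the conditions and 16 were among the 100. The others included genes that were lower on L100 than on G100. For XYN2 (ID 123818), ABF3 (ID 55319) and CEL3B (ID 121735), the log2 differences were -3.27, -2.59 and -2.23 at 48 h. At 24 h they were -1.52, -2.04 and -1.47. BGL1 (ID 76672) differed by -0.34 at 48 h and 1.19 at 24 h. Several genes at the centre of lactose growth were not among the 100. The beta-galactosidase BGA1 (ID 80240), which splits lactose, ranked 127, and the lytic polysaccharide monooxygenase CEL61A (ID 73643) ranked 145. The lactose permease CRT1 ranked 394 with means at 24 h of 6020 CPM for G100, 25300 for G90-L10, 41300 for G75-L25 and 50500 for L100. The activators XYR1, CLR2 and ACE3 ranked 363, 358 and 650. Among 6 such regulators and permeases, 5 met the conditions and 0 were among the 100. The beta-glucosidase BGL2 (ID 120749) and the beta-xylosidase BXL1 (ID 121127) ranked 444 and 568, and BXL1 had means at 48 h of 2860 CPM for G90-L10, 4170 for G75-L25 and 4220 for L100.

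**Figure D3:**
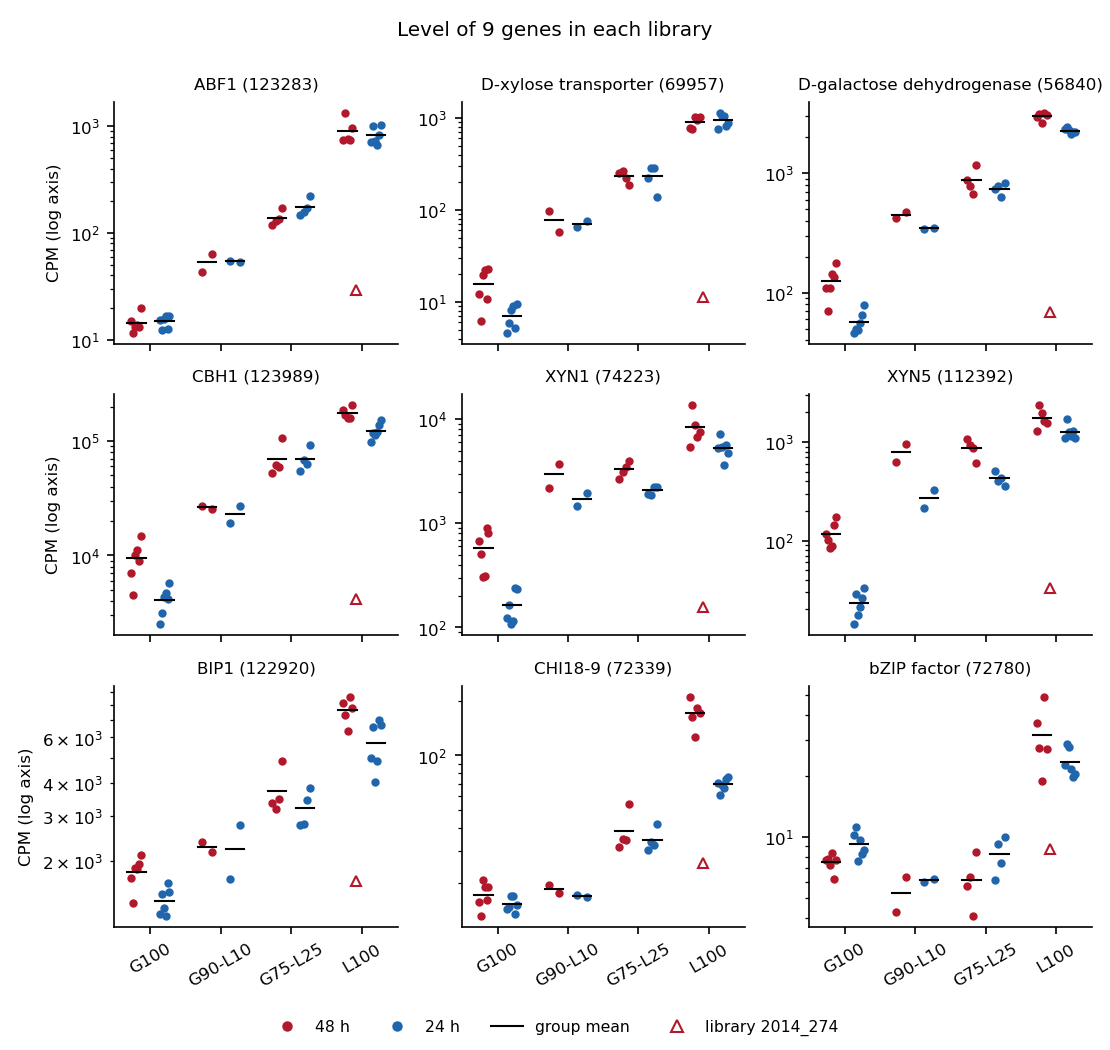
Normalised counts (CPM, log axis) of 9 genes in every library, by feed and time, with lines for group means and an open triangle for the library titled 2014_274. ABF1, the permease ID 69957, ID 56840, CBH1, XYN1, XYN5, BIP1 and CHI18-9 stand higher on L100 than on G100, with mixtures between for most, while the bZIP protein ID 72780 has means on both mixtures below those on G100.

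Permeases of sugars and other small molecules made up another group, with 9 genes among the 63 transporters listed by keyword, 1 of which is in fact annotated as a regulator of transporters. The putative D-xylose permease ID 69957 had the third widest step. It had 750, 965 and 1120 CPM (lowest, median and highest) on L100 at 24 h, against 4.62, 7.03 and 9.46 CPM on G100. On the mixtures at 24 h it had 65.9 and 75.1 CPM on G90-L10 and 221, 288, 285 and 138 CPM on G75-L25. No feed overlapped another, and the L100 mean was 57.9 times that of G100 at 48 h and 134 times at 24 h. XLT1 (ID 104072), a xylose permease, averaged 869 ± 51.4 CPM on L100 (SD, n = 5), against 55.8 ± 10.7 CPM on G100 (SD, n = 6) at 48 h. The sugar permease ID 56684 was 19.9-fold and 37.6-fold higher on L100 than on G100 at 48 h and 24 h, and the facilitator ID 67541 was 14.7-fold and 25.5-fold higher.

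The putative peptide permease ID 80086 had 81.3, 150, 106, 85.8 and 116 CPM on L100 at 48 h, against 0.287, 1.57 and 2.09 CPM (lowest, median and highest) on G100. On G75-L25 at 48 h its libraries spread over 18.2, 41.9, 31.5 and 96.6 CPM, the highest again in the library titled 2015-431 and inside the L100 range. The remaining permeases were weaker. ID 69834 averaged 1900 ± 484 CPM on L100 and 390 ± 85.7 CPM on G100 at 48 h, with means of 365 CPM on G90-L10 and 611 CPM on G75-L25. Its G75-L25 libraries at 48 h had 400, 421 and 455 CPM and, in the library titled 2015-431, 1170 CPM. The methionine permease-like ID 68831 and the monocarboxylate permease-like ID 66854 averaged 7.85 and 7.43 CPM on L100 at 48 h.

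Enzymes of sugar metabolism inside the cell were also among the 100. ID 56840 is annotated as a putative D-galactose dehydrogenase, a type of enzyme that oxidises galactose. It had 2950, 3140, 2650, 3170 and 3090 CPM on L100 at 48 h, against 70.6, 123 and 178 CPM (lowest, median and highest) on G100. On the mixtures at 48 h it had 421 and 478 CPM on G90-L10 and 886, 783, 673 and 1170 CPM on G75-L25. No feed overlapped another. XKI1 (ID 123288), the putative xylulokinase that feeds xylulose into the pentose phosphate pathway, averaged 228 ± 12 CPM on L100 and 47.6 ± 3.48 CPM on G100 at 48 h. The putative D-xylose dehydrogenase ID 53673 averaged 216 ± 43 CPM on L100 and 39.2 ± 4.27 CPM on G100 at 48 h.

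Ferric reductase-like ID 110666, of a family that reduces iron at the cell surface, had one of the largest folds against glucose. It had 849, 1150, 1000, 815 and 1090 CPM on L100 at 48 h, against 7.71, 11.6 and 15.4 CPM (lowest, median and highest) on G100. On G75-L25 it already had 384 to 600 CPM, so its step from there to L100 was only 2.18-fold. Its neighbour ID 110665, which is not on the study's gene list, had no more than 2 counts in any G100 library at 48 h and 0 at 24 h. Against a floor of 3 counts per library, it was at least 241-fold higher on L100 than on G100 at 48 h and at least 136-fold higher at 24 h. It is not given a fold within G100.

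Of 25 annotated transcription factors on the list, 9 met the conditions and 2 were among the 100, beside 100 of all 668 genes that met them. The bZIP protein ID 72780 had 36.6, 27.5, 18.9, 49.1 and 27 CPM on L100 at 48 h, against 6.23, 7.73 and 8.31 CPM (lowest, median and highest) on G100. On the mixtures at 48 h it had 4.25 and 6.36 CPM on G90-L10 and 5.71, 6.38, 4.08 and 8.48 CPM on G75-L25. At that time every L100 library was above all others, and all but 1 of the mixture libraries were below the G100 median. ID 121121, annotated as a STB4-type regulator of transporters, followed the feed instead, with means at 48 h of 31.2 CPM for G100, 51.9 for G90-L10, 75.9 for G75-L25 and 148 for L100.

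Of 13 genes on the folding and secretion list, 5 met the conditions and 1 was among the 100. This was BIP1 (ID 122920), the Hsp70 chaperone of the endoplasmic reticulum that helps secreted proteins fold. It averaged 5690 ± 1210 CPM on L100 (SD, n = 6), against 1410 ± 167 CPM on G100 (SD, n = 6) at 24 h, and was 4.2-fold higher on L100 at 48 h. Of 20 proteases, 2 were among the 100, the trypsin-like ID 106315 and the carboxypeptidase-like ID 5369, with 62.3 and 12 CPM on L100 at 48 h. Of 22 amino acid genes, the tryptophan synthase-like ID 56350 joined the permease ID 68831, with 16.6 ± 2.09 CPM on L100 and 1.16 ± 0.615 CPM on G100 at 48 h. Of 7 secondary metabolism genes, 0 met the conditions. For 17 of the 100 the study's list gives no function, and 18 are not on that list. ID 123261 and ID 111875, both of unknown function, ranked 7 and 9. ID 123261 averaged 81.1 ± 25.4 CPM on L100 (SD, n = 5), against 7.3 ± 1.14 CPM on G100 (SD, n = 6) at 48 h. ID 111875 had 782, 523, 351, 978 and 873 CPM on L100 at 48 h, against 19.1 to 47.8 CPM on G100, and 69.1, 77.8, 68.9 and 553 CPM on G75-L25, the last in the library titled 2015-431. Of the 18 not on the list, only ID 110665 stood more than 4-fold above G100 at both times.

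The 7 genes whose better mixture stayed under 0.5 at both times had small folds against G100. Besides the bZIP protein, ID 68588, a putative oxidoreductase, had 121, 58.7, 46.4, 95.8 and 85.1 CPM on L100 at 48 h, against 14.3, 20.7 and 26.4 CPM (lowest, median and highest) on G100. On G75-L25 at 48 h, 3 libraries had 12.8, 14.4 and 16.6 CPM while the library titled 2015-431 had 51.7 CPM, inside the L100 range. At 24 h its L100 libraries, at 21.1 to 49.6 CPM, overlapped the G100 libraries, at 11.2 to 25.6 CPM. The remaining 5 (ID 58381, 82309, 23062, 65410 and 122134) are not on the study's list and had L100 means at 48 h of 2.38 to 2.74 times those of G100.

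The changes between 48 h and 24 h were tested on each feed. Libraries of both times were treated as independent. The paper gives as many replicate flasks of each feed as there are libraries of that feed at each time. The same flasks therefore appear to have been sampled at both times, and the p-values ignore this. The choice of genes used the values of both times and required a high L100 value at each, so that it left little room for genes that fall with time on L100, and nothing is read from a low count in that direction. The other qualifying genes, which met the same conditions, are given beside the counts. Tests used edgeR's quasi-likelihood model over 35 libraries with p adjusted by Benjamini-Hochberg over all 8338 genes, and a gene was called at an adjusted p under 0.05. On L100, 28 of the 100 genes were higher at 48 h than at 24 h, where 14.7% of all genes were, and 0 were lower, where 14% were. At an unadjusted p under 0.05 the numbers were 45 higher and 2 lower, and DESeq2 called 32 higher and 0 lower. The median log2 difference was 0.30 for the 100 and -0.01 for all genes. Among the 568 other qualifying genes 19.5% were called higher and 4.05% lower, with a median of 0.15. Scaled by library size only, which moved the median of all genes to -0.17, 18 of the 100 were higher and 4 lower. With the library titled 2014_274 put back, 4 were higher, and 15 of the 28 were called whichever library was left out.

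CHI18-9 (ID 72339), a GH18 chitinase-type protein, had the smallest p on L100. It had 210, 163, 127, 183 and 171 CPM at 48 h, against 60.8, 70.2 and 76.5 CPM (lowest, median and highest) at 24 h, without overlap. The log2 difference was 1.29 ± 0.12 (SE; edgeR adjusted p = 1.83e-08). ID 63240, a HET domain protein of a family tied to vegetative incompatibility in fungi, averaged 360 ± 60.7 CPM at 48 h and 172 ± 16.3 CPM at 24 h, a log2 difference of 1.06 ± 0.12 (SE; edgeR adjusted p = 5.24e-07). The phosphotransferase-like ID 103900 averaged 13.2 ± 1.78 CPM at 48 h and 5.77 ± 0.297 CPM at 24 h, a log2 difference of 1.19 ± 0.16 (SE; edgeR adjusted p = 6.50e-06). With the library titled 2014_274 put back, the call for ID 103900 was lost and those for CHI18-9 and ID 63240 held. Of the 24 carbohydrate-active proteins among the 100, 6 were higher at 48 h on L100 and 0 lower, with a median of 0.45. Of all 81 listed carbohydrate-active proteins, 10 were higher and 13 lower, with a median of 0.03, so the class as a whole did not rise. ABF2 was among the 6, while CBH1, at 176000 ± 20600 CPM at 48 h and 123000 ± 19500 CPM at 24 h, was not called.

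On G100, 37 of the 100 were higher at 48 h than at 24 h, where 9.83% of all genes were, and 3 were lower, where 6.12% were. The median log2 difference was 0.31 for the 100 and -0.01 for all genes. Among the other qualifying genes 12.3% were higher and 2.29% lower. The carbohydrate-active proteins were most of this group, with 20 of 24 higher, 0 lower and a median of 1.23, and DESeq2 called 39 of the 100 higher and 3 lower. Of all 81 listed carbohydrate-active proteins, 32 were higher and 3 lower on G100, with a median of 0.34. With the library titled 2014_274 put back, 14 of the 100 were higher on G100, a test that it enters only through the shared spread, the filter and the scaling. Of the 37, 32 were called whichever library was left out.

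XYN5 changed most clearly. It had 83.9, 110 and 172 CPM (lowest, median and highest) on G100 at 48 h, against 14.1, 23.7 and 32.8 CPM at 24 h. The times did not overlap, and the log2 difference was 2.32 ± 0.21 (SE; edgeR adjusted p = 2.64e-08). The quinone reductase-like ID 120504 averaged 137 ± 40.2 CPM at 48 h and 58.3 ± 6.6 CPM at 24 h on G100, a log2 difference of 1.23 ± 0.13 (SE; edgeR adjusted p = 6.88e-07). CEL74A differed by 1.34 ± 0.17 on the log2 scale (SE; edgeR adjusted p = 4.61e-06), and CBH1 also rose, with 9450 ± 3500 CPM at 48 h and 4090 ± 1140 CPM at 24 h on G100. These levels remained far under those on L100 at either time.

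The 3 genes that fell on G100 were ID 82309, ID 79813 and XLT1. ID 82309 had 7.05, 7.97 and 9.18 CPM (lowest, median and highest) at 48 h, against 11.9, 13 and 16.6 CPM at 24 h, a log2 difference of -0.78 ± 0.10 (SE; edgeR adjusted p = 5.72e-06). ID 79813, not on the study's list, differed by -0.38 ± 0.10 (SE; edgeR adjusted p = 0.00863). XLT1 differed by -0.36 ± 0.12 (SE; edgeR adjusted p = 0.0334), and its call was lost in 5 of 12 cases when a single library of the compared groups was left out. With the library titled 2014_274 put back, ID 82309 alone of the 3 was called.

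On the mixtures few genes changed with time. Among the other qualifying genes 0.704% were higher and 1.06% lower on G75-L25, and 0% and 0.176% on G90-L10. On G75-L25, 3 of the 100 were higher at 48 h than at 24 h (0.576% of all genes) and 0 lower (0.732%), with 11 and 4 at an unadjusted p under 0.05 in edgeR and 4 and 0 called by DESeq2. They were ID 63240, the peptide permease ID 80086 and XYN5, with log2 differences of 0.83 ± 0.14, 2.40 ± 0.49 and 1.04 ± 0.24 (SE; edgeR adjusted p = 0.00121, 0.00829 and 0.0238). For ID 80086 the difference was 3.20 without G75-L25 24 h replicate 4 (2015-430) and 1.79 without G75-L25 48 h replicate 4 (2015-431). In a model of only the groups compared 0 were called, and 0 with the library titled 2014_274 put back. XYN5 lost its call in 5 of 8 cases when a library of either time was left out. On G90-L10, with 2 libraries at each time, only XYN5 was higher (0.156% of all genes) and 0 were lower (0.144%), with 11 and 1 at an unadjusted p under 0.05 in edgeR and 1 and 0 called by DESeq2. XYN5 had 627 and 948 CPM at 48 h, against 213 and 327 CPM at 24 h, a log2 difference of 1.54 ± 0.35 (SE; edgeR adjusted p = 0.0428). The call of XYN5 was lost whichever of the 4 libraries was left out (edgeR adjusted p of 0.0643 to 0.803), while another of the 100 was called without G90-L10 24 h replicate 2, and it was also lost with the library titled 2014_274 put back.

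**Figure D4:**
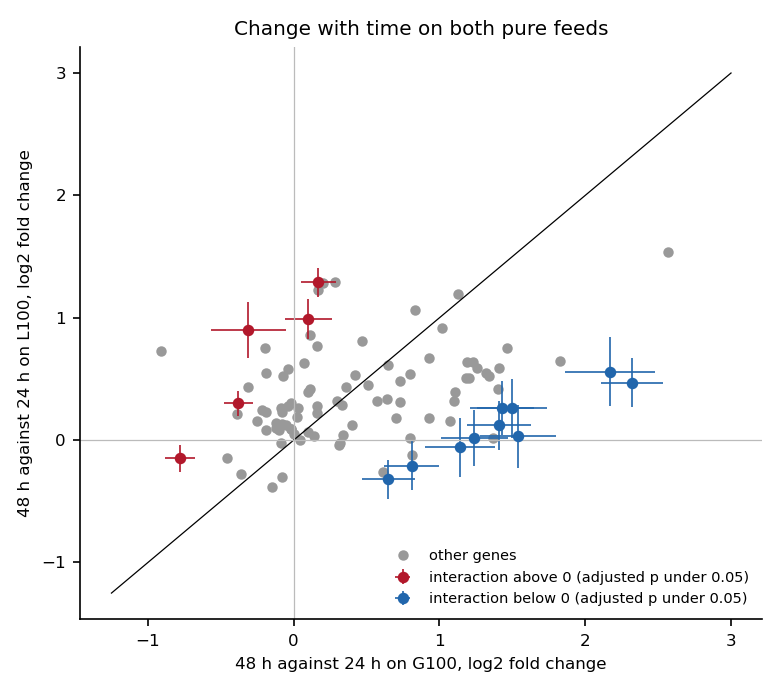
Log2 difference of 48 h from 24 h on L100 (vertical axis) against that on G100 (horizontal axis) for 99 genes, ID 110665 being left out for its counts at the floor on G100, with coloured points and SE bars for the genes called in the interaction test (adjusted p under 0.05, edgeR) and grey points for the others. Among the 5 genes with an interaction above 0, CHI18-9 lies at 1.29 on L100, and among the 10 below 0, XYN5 lies at 2.32 on G100.

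The L100 effect against G100 was tested for a difference between 48 h and 24 h by the interaction term, which uses the same libraries as the time tests on both pure feeds. It was larger at 48 h for 5 of the 100 (1.49% of all genes) and smaller at 48 h for 10 (1.37% of all). Among the other qualifying genes 1.58% were called larger and 2.46% smaller, with a median of 0.07. The choice of genes required a high L100 effect at both times and so bears on this test. Nothing is read from these counts as a trait of the 100. The median was -0.04 for the 100 and -0.01 for all genes, and of the 24 carbohydrate-active proteins 1 was higher and 5 lower, with a median of -0.80. Of all 81 listed carbohydrate-active proteins, 1 was higher and 12 lower, with a median of -0.64. For the 100, DESeq2 called 5 higher and 19 lower, and scaling by library size called 4 and 20. With the library titled 2014_274 put back, 0 were called in either direction. The count of 10 rested on few libraries. It was 2 without G100 48 h replicate 4, 3 without L100 48 h replicate 6, 4 without any one of G100 24 h replicate 5, G100 48 h replicates 3 and 6, L100 24 h replicate 4 and L100 48 h replicates 1 and 5, 5 without G100 24 h replicate 2 or L100 24 h replicate 3, 6 without G100 24 h replicate 1, and 20 without G100 48 h replicate 2. The count of 5 became 3 without L100 48 h replicate 5 or 6.

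CHI18-9 had the clearest larger effect at 48 h, with L100 9.87 times G100 at 48 h and 4.57 times at 24 h, an interaction of 1.12 ± 0.17 on the log2 scale (SE; edgeR adjusted p = 0.00131). ID 79813 (0.68 ± 0.14 SE, edgeR adjusted p = 0.0128) and ID 82309 (0.63 ± 0.15 SE, edgeR adjusted p = 0.0185) also had larger effects at 48 h, and both had lower values on G100 at 48 h than at 24 h. XYN5 had the clearest smaller effect, with L100 15 times G100 at 48 h and 54.1 times at 24 h, an interaction of -1.85 ± 0.29 (SE; edgeR adjusted p = 0.00131). The unannotated ID 104422 had -1.28 ± 0.29 (SE; edgeR adjusted p = 0.0156), and XYN6 had -1.51 ± 0.37 (SE; edgeR adjusted p = 0.0235), which was lost without G100 48 h replicate 4. CHI18-9, ID 79813, ID 82309, XYN5 and ID 104422 were called whichever library was left out.

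Many of the genes lay beside one another in the genome. In the gene order of the RefSeq annotation of *T. reesei* v2.0, in which all 100 were found, 22 of the 100 were directly adjacent to another of the 100. Among the other qualifying genes 4.41% lay next to one of the 100, and among all other tested genes 1.61% did. With up to 2 genes between, the numbers were 35 of 100, against 8.64% and 4.62%. They formed 15 runs with 35 of the genes and 11 genes in between, 3 of which met the conditions. None of the neighbours in these runs overlapped. The median gene length was 1449 bases for the 100, 1527 for the other qualifying genes and 1544 for all tested genes.

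The longest runs lay on chromosomes I and II. On chromosome II, the tryptophan synthase-like ID 56350, the D-galactose dehydrogenase-like ID 56840, the sugar permease ID 56684 and XLT1 shared 12.2 kb with 1 gene between (ID 104071), which itself had 2.9 CPM on L100 and 0.186 CPM on G100 at 48 h. On chromosome I, XYN1, ID 103048, the GH28 protein ID 103049 and the dihydrodipicolinate synthase-like ID 2036 shared 16.7 kb with 2 genes between. CBH1 and SWO1 lay within 12.4 kb on chromosome II, and the gene between them, ID 69483 of unknown function, went the other way with 0.737 CPM on L100 and 7.52 CPM on G100 at 48 h.

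Other runs were shorter. AXE1 and CIP1 lay within 3.99 kb on chromosome III, and the xylose permease-like ID 69957 and the GH31 protein ID 69944 lay within 6.15 kb on chromosome VI. The STB4-type regulator ID 121121 was next to CEL3D on chromosome V within 5.11 kb, and XYN5 was next to the unannotated ID 124198 on chromosome IV within 1.65 kb. On chromosome III, the permease ID 69834 and ID 111875 lay within 4.93 kb. CBH2 and the GH105 protein lay within 6.74 kb on chromosome II with 1 gene between, ID 104050. The ferric reductase-like ID 110666 and ID 110665, the pair with the largest folds against G100 at 48 h, lay next to each other on chromosome VII within 7.94 kb.

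**Figure D5:**
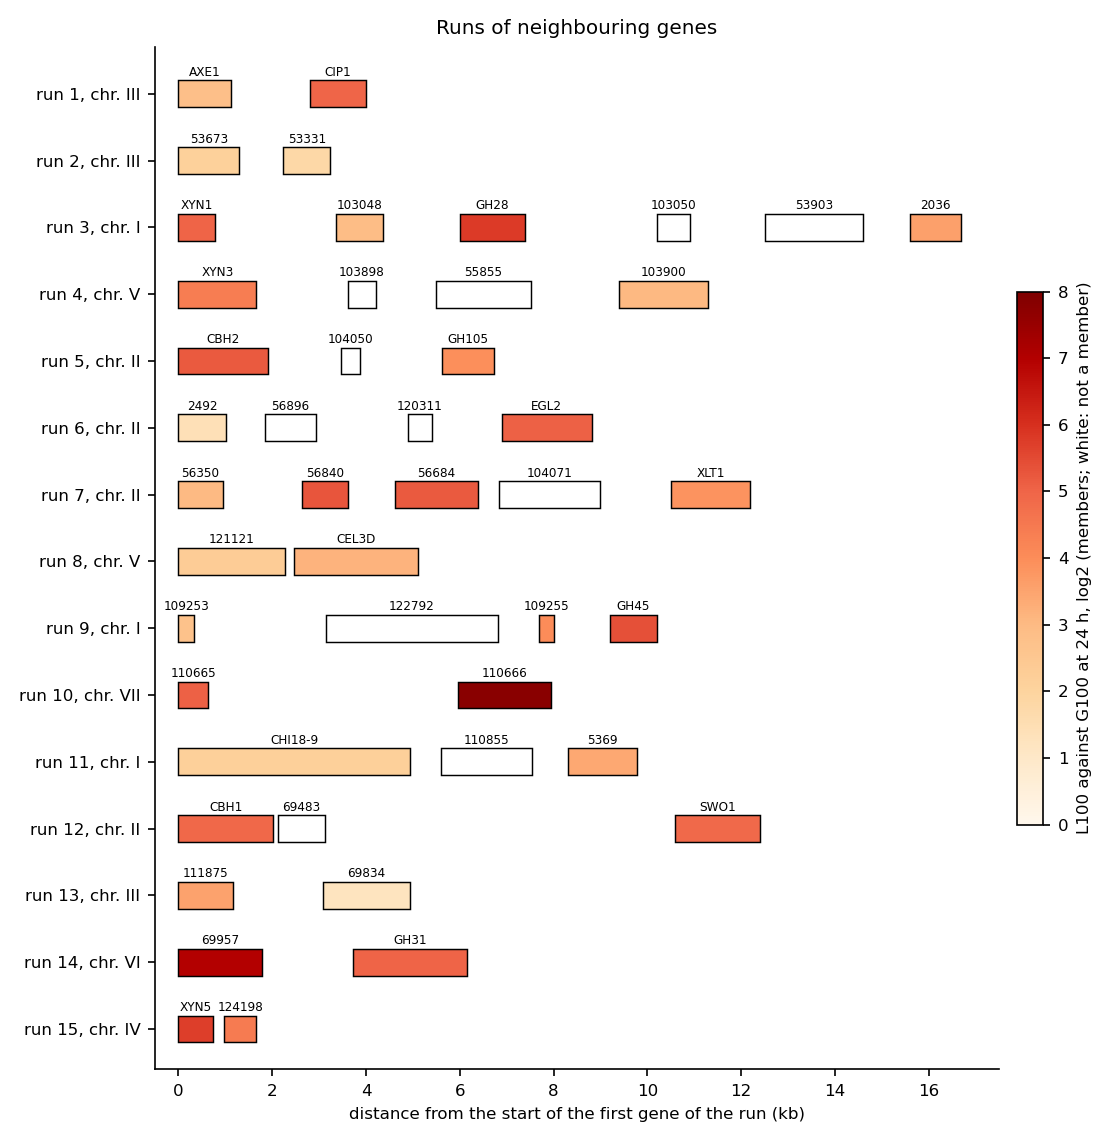
Map of the 15 runs to scale, with distance in kb from the first gene of each run on the horizontal axis and each gene drawn as a block, the chosen genes shaded by their log2 difference between L100 and G100 at 24 h and the 11 genes between in white. The runs span 1.65 to 16.7 kb and hold 2 to 4 of the genes each.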

How the data were processed

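The authors sequenced strand-specific mRNA libraries, trimmed and filtered reads with the Eoulsan pipeline, and deposited for each of 36 libraries the counts per gene of the JGI annotation version 2 (9129 genes), whole numbers without normalization. The submitters' processing notes name Bowtie, HTSeq 0.5.3 and bcl2fastq 2.17.1.14. Counts of near-identical genes depend on how that counting placed shared reads. Groups came from the labels.

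The tests were run in edgeR 4.0.16 (R 4.3.3): filterByExpr (minimum count 10, 8338 genes), TMM factors, and quasi-likelihood tests in 1 model of 8 group means over 35 libraries, without 2014_274. P-values were adjusted by Benjamini-Hochberg over all genes tested. Figures used matplotlib 3.10.9 in Python 3.11.15. Alternatives were DESeq2 1.42.0, RLE, library-size scaling, other filters, 36 and 33 libraries, only the groups compared, an absolute log2 fold change over 1, and each library left out.

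The genes, gene lists and tests were chosen with earlier results of these data known. Named genes were the 15 highest scores, those at the limit, genes the study names, up to 8 per class, up to 3 per direction and time test, and neighbours. Any others named were chosen after their values were seen. Functions came from the study's gene list, gene order from RefSeq.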

Additional observations from a re-analysis of the deposited data

Results flagged for a closer look

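Groups of 4 to 6 libraries were screened for a lowest or highest library far from the rest with Dixon's test, for the median over the 100 genes and for named genes. Of 84 such tests 12 stood out, a test that marks about 1 group in 20 by chance. The library titled 2014_274 was lowest in its group in 8 of them, with a median over the genes of -0.57 on the log2 scale relative to G100 and with 11.3 CPM for ID 69957, 68.5 for ID 56840, 44.1 for XLT1 (ID 104072), 4200 for CBH1 (ID 123989), 1680 for BIP1 (ID 122920), 24.7 for ID 121121 and 2.7 for ID 110666. The library titled 2015-431 was highest on G75-L25 at 48 h for CHI18-9 (ID 72339) with 54.4 CPM and for ID 68588 with 51.7 CPM, and 2015-430 was highest on G75-L25 at 24 h for ID 68588 with 37.3 CPM. XLT1 was lowest on G100 at 48 h in the library titled 2014_267 with 35.2 CPM.

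The L100 effect against G100 differed between 48 h and 24 h in the interaction test for 15 genes. On the log2 scale it was larger at 48 h by 1.21 for ID 56646, a putative FAD-binding protein, by 1.12 for CHI18-9, by 0.89 for ID 54223, a Rossmann-fold protein, by 0.68 for ID 79813 and by 0.63 for ID 82309. It differed by -1.85 for XYN5 (ID 112392), -1.61 for ID 110666, -1.51 for XYN6 (ID 69276), -1.28 for ID 104422, -1.24 for the GH45 protein ID 49976, -1.22 for ID 108340, -1.20 for ID 69957, -1.17 for EGL2 (ID 120312), -1.02 for the GH31 protein ID 69944 and -0.97 for ID 66766, a putative nitrilase.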

How the results depend on the processing

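None of the counts and named values recomputed changed direction, but with library-size scaling 66 of the 100 genes were above 0 at 48 h against 24 h on L100, against 86 with TMM. The genes kept of the 100 were 100 with RLE, 76 with library-size scaling, 84 with 36 libraries, 81 with 33 libraries, 99 with a pseudocount of 1, 80 with 5, 79 with medians, 90 with a minimum of 1 CPM and 80 with 20 CPM, and 82 to 100 when 1 library was left out, 66 in every case. For 48 h against 24 h, library-size scaling gave 18 higher and 4 lower on L100, 0 higher on G90-L10 and 20 lower in the interaction. All 36 libraries gave 4 higher on L100, 14 higher and 1 lower on G100, and 0 higher on G75-L25, on G90-L10 and in the interaction, with 0 lower there. The 33 libraries gave 1 lower on L100, 2 higher on G90-L10 and 17 lower in the interaction. A model of only the groups compared gave 2 lower on L100 and 0 higher on both mixtures. An absolute log2 fold change over 1 gave 7 higher on L100, 0 lower on G100 and 2 higher in the interaction. DESeq2 gave 19 lower in the interaction. The cause of these changes was not tested. Leaving out 1 library gave 20 to 35 higher and 0 to 1 lower on L100, 32 to 44 higher and 2 to 3 lower on G100, 2 to 3 higher and 0 to 1 lower on G75-L25, 0 to 1 higher (never XYN5) and 0 lower on G90-L10, and 3 to 6 higher and 2 to 20 lower in the interaction. XYN5 lost its call on G75-L25 in 5 of 8 such cases (edgeR adjusted p of 0.0594 to 0.077). Allowing up to 2 genes between neighbours gave 35 genes instead of 22. No paired analysis was possible because the labels number libraries serially and do not name the culture each flask came from. Tests treat libraries of 48 h and 24 h as independent, although the replicate numbers in the paper point to the same flasks sampled at both times. The effect of this on the p-values was not tested. A planned search of promoters and proteins was not run, as no sequences were used here. Genes near 5 CPM carry the largest counting error, and with 2 libraries a time G90-L10 shows only large changes.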
